A study of Drosophila melanogaster with 3 samples.

Results

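The morphogen genes dpp and wg were examined for binding of Yorkie (Yki) in S2 cells through 1 window around each gene on arm 2L of the dm3 build. The dpp window ran from 2420000 to 2490000 (70 kb) and the wg window from 7295000 to 7330000 (35 kb). The regions taken were all listed Yki intervals with a midpoint inside a window. They numbered 1 in the dpp window and 0 in the wg window, of 897 listed on 2L and 3990 in all. Among the other windows of 2L, 66.9% of those of 70 kb and 48.7% of those of 35 kb held at least 1. The density of Yki over both windows was read from a second table with 1 value for each 100 bp, which gave 700 values for dpp and 350 for wg.

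S2 cells are a long-established fly cell line derived from embryos. After fixation with formaldehyde and sonication, Yki-bound chromatin was pulled down with anti-Yki antibody for 2 ChIP libraries, and 1 input library received no antibody. All 3 libraries came from the same line, and the labels name no genotype, agent or time. The groups follow the titles, source names and antibody entries, although the free-text descriptions of the same samples name embryo material and, for both ChIP libraries, the GAF protein. The deposited interval list names no library, and the density was taken to pool the ChIP libraries. Neither gives a value per library, so replicate error cannot be given for any value and the read depth is unknown.

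Decapentaplegic (dpp) encodes a secreted ligand of the bone morphogenetic protein family, and wingless (wg) encodes a secreted ligand of the Wnt family. Both act as morphogens: they spread from the cells that make them and pattern growing tissues such as the wing and leg imaginal discs according to their level. Yki is the transcriptional coactivator restrained by the Hippo pathway, and it reaches DNA through partners such as Scalloped. The link of Yki to these ligands comes from work in imaginal discs and not from S2 cells. In the RefSeq gene order of Release 6, another build, the 3 genes before dpp are CG9886, CG44139 and lncRNA:CR44912, and those after it are 2 tyrosine tRNA genes and lncRNA:CR45286. The neighbours of wg are the Wnt-family gene Wnt4, CG31909 and CG13786 before it and lncRNA:CR45304, Wnt6 and Wnt10 after it, so wg lies in a cluster of Wnt ligand genes. No annotation or sequence of dm3 was used here, so the position of a signal relative to a promoter, exon or intron of dpp or wg, or to their neighbours, was not analysed.

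Yki density formed 1 sharp, tall and solitary peak in the dpp window and no peak of that kind in the wg window. The density is a smoothed score with input subtracted, so a value above 0 means more ChIP than scaled input signal and a value below 0 the reverse. The highest value was 468.7 in the dpp window, against 63.0 in the wg window, a difference of 406 and a ratio of 7.44. If 1 ChIP tag is read as a height of 1, which is assumed, the counting SD of that difference is at least 19.4. The width of 1 tag was then taken from the commonest isolated bumps of the track. The counting SD says nothing of the spread between libraries, nor of picking the highest of 700 samples and of 350. The windows also differ in size: the median highest density was 139 in other 70 kb windows of 2L and 84.8 in those of 35 kb.

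**Figure D1:**
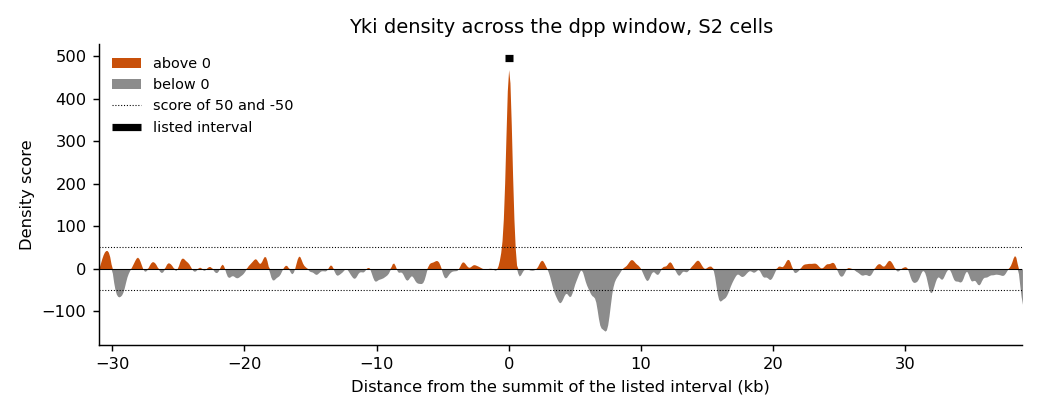
Density score (vertical axis) at each 100 bp of the dpp window against distance from the summit of its listed interval in kb; the black bar is the listed interval and dotted lines mark 50 and -50. The summit at 468.7 is the only rise past 50, and the deepest trough, at -147, lies 7.30 kb to its right.

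The interval in the dpp window lay at chr2L:2450724-2451374, 30.7 kb into the window, and was 651 bp wide. Its 7 samples averaged 343 and summed to 2399. On the reading of 1 tag above, that sum equals the signal of a net 481 ChIP tags. The smoothed signal spread past the interval, and the 10 samples at or above 50 over the same peak gave 541. From 300 bp left of the summit, the samples inside the interval read 202, 314, 418.5, 468.7, 437, 339 and 219. The density rose and fell almost evenly around the summit, reaching 0.5 of its height 271 bp to the left and 287 bp to the right. At 600 bp from the summit it had dropped to 37.8 on the left and 8.23 on the right, and at 800 bp on the right it was below 0, at -17.4.

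**Figure D2:**
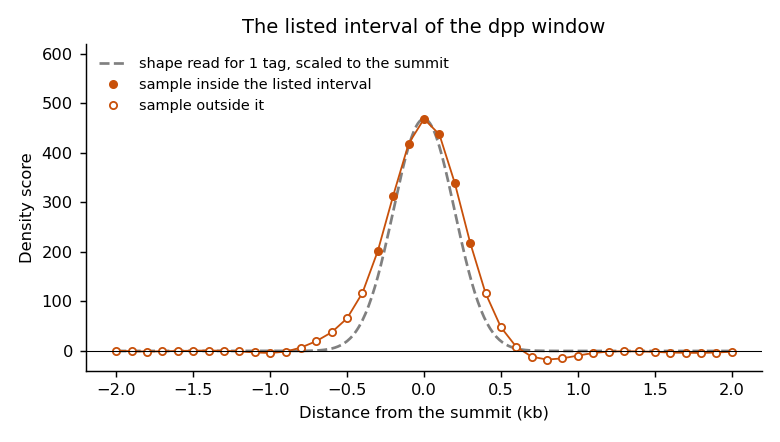
Density score (vertical axis) against distance from the summit in kb for samples inside (filled) and outside (open) the listed interval of the dpp window; the dashed curve is the shape read for 1 tag, a Gaussian scaled to the summit height. The measured peak is 558 bp wide at 0.5 of its height and the dashed curve 468 bp.

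At 0.5 of its height the peak was narrower than most on 2L, with a smaller margin against peaks at or above its own height. Its full width at 0.5 of the summit height, 558 bp, was 1.19 times the 468 bp of a single tag under the reading above. Of the 897 intervals on 2L, 46 (5.13%) were as narrow or narrower by this measure, and the median was 1016 bp, with quartiles of 689 and 2117 bp. In a dense group this width can take in neighbouring intervals, and it is measured from a score of 0 and not from the flanks. Among the 78 intervals on 2L at or above the dpp height, the median of the same measure was 643 bp, and 8 were as narrow or narrower than the 558 bp of dpp. The dpp interval's listed width was 651 bp, against a median of 1152.5 bp for these 78, of which 6 were no wider. Against all 897, its listed width went the other way and was above the median of 420 bp. Here and below, counts of intervals on 2L include the dpp interval itself.

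In height the dpp interval stood near the top of the list. It ranked 78 of 897 on 2L (8.70% at or above it) and 350 of 3990 in the whole series (8.77%). The median height on 2L was 122, with quartiles of 93.2 and 202. The counting SD of the dpp height is at least 18.2. In listed width, 263 of the 897 intervals (29.3%) were as wide or wider, and the median was 420.0 bp. These ranks compare intervals of 1 list and carry no test.

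The surroundings of the dpp interval were close to 0 on the left and below 0 on the right. Between 2 and 5 kb from its edges the density averaged 0.310 on the left and -38.7 on the right, and -19.2 over both. Flanks as low as this were found at 69 of the 897 intervals on 2L (7.69%), whose median flank was 23.1. The interval mean stood 362 above its flanks, against a median of 95.4 for 2L, and 54 intervals of 2L reached that difference. Every sample at that distance was averaged, so the flanks of intervals with close neighbours can take in the peaks of those neighbours. The dpp flanks held no listed interval, so both comparisons can partly restate the isolation of the dpp interval described below.

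The next listed intervals were far away and lower than the dpp interval, with heights below the 2L median of 122 and above the lower quartile of 93.2. The one before, at chr2L:2376275-2376518, was 74.2 kb from the dpp interval and reached 96.2. The one after, at chr2L:2492816-2493106, was 41.4 kb away, 2.82 kb beyond the end of the window, and reached 104.7. The median gap between neighbouring intervals on 2L was 4.67 kb. Of the 895 intervals with a neighbour on each side, 46 (5.14%) had at least 41.4 kb free on both sides, and 6 of these reached its height. The median height of the 46 was 126.

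Outside its interval, most of the dpp window had density below 0. Of its 700 samples, 267 (38.1%) were above 0, against 55.5% of all samples on 2L. The mean over the window was -5.87 and the median -5.10, and without the 7 samples of the interval the mean fell to -9.39. The interval held 43.1% of all density above 0 in the window. Density above 0 summed to 5563, and density below 0 to -9668.

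The troughs of the dpp window lay mostly to the right of the peak. Stretches at or below -50 were counted as runs, and 5 had their lowest point in the window, against 1 run at or above 50, which was the peak itself. At the arm's average rate, 70 kb of 2L held 5.44 runs below and 4.80 above. The deepest, at chr2L:2457154-2458854, fell to -147 over 18 samples, and its counting SD is at least 6.14 on the tag reading. It was followed in depth by a run at chr2L:2454454-2455854 that fell to -80.3, whose lowest point was 3.90 kb to the right of the summit. The other 3 runs fell to -76.5, -66.5 and -56.6 at 47.1, 1.55 and 63.1 kb into the window. A sixth run crossed the end of the window and had its lowest value, -91.7, outside it. A value of -147 or lower within 10 kb of the summit was found for 123 of the 897 intervals on 2L (13.7%), and the median of these lowest values was -71.9. In the 70 kb windows of 2L, 91.7% had a run at or below -50 and 79.8% a run at or above 50.

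The wg window held low positive density at both ends, and a trough and another low positive stretch between them. Its highest sample, 63.0, lay 0.154 kb into the window in a run of 6 samples at or above 50 that began just before the window. The counting SD of that value is at least 6.68. The run was not listed as an interval, although 24 of the 897 listed intervals on 2L (2.68%) had a height of 63.0 or less and the lowest reached 46.2. Rises of at least 30 were found at 4 other places, reaching 46.2, 34.5, 30.5 and 47.8 at 1.15, 2.95, 11.7 and 30.2 kb into the window. The 1 run at or below -50, at chr2L:7314154-7315054, fell to -89.3, with a counting SD of at least 4.78. A run at or above 50 was present in 66% of the 35 kb windows of 2L and a run at or below -50 in 78.9%.

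**Figure D3:**
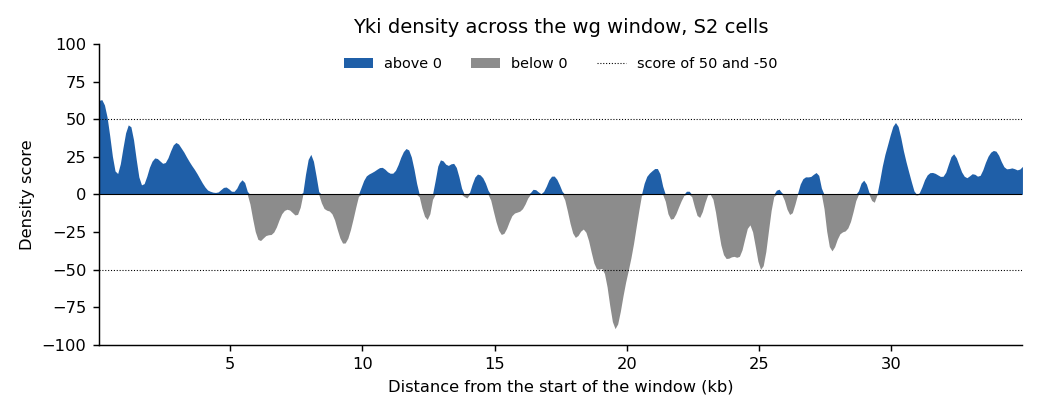
Density score (vertical axis) at each 100 bp of the wg window against distance from the start of the window in kb; dotted lines mark 50 and -50, and no listed interval lies in the window. Density is highest at the left edge (63.0), falls to -89.3 at 19.6 kb and is above 0 again near the right edge.

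Over the whole wg window the density was near 0. Of its 350 samples, 201 (57.4%) were above 0, close to the 55.5% of all 2L. The mean was -0.445 and the median 2.82, with quartiles of -13.9 and 15.7. The SD over samples was 27.1 in the dpp window outside its interval and 24.5 in the wg window, against 36.4 over 2L outside listed intervals.

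The wg window sat in a long stretch without a listed interval. The nearest before it, at chr2L:7277069-7277397, reached 89.2 and ended 17.6 kb from the window. The nearest after it, at chr2L:7411871-7412504, reached 137 and began 81.9 kb beyond it. The stretch between them, 134 kb, was matched or exceeded by 46 of the 896 gaps on 2L (5.13%), itself included. That share counts gaps and not bases, and long gaps cover a larger share of the arm than of the gap count. Of the 655 other windows of 35 kb on 2L, 336 held no listed interval.

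Pieces of 5 kb showed where each window departed from its mean. In the dpp window, the piece with the interval averaged 46.4 and the next piece to the right -57.0. Of the 4600 pieces of 2L, 6.15% were as high as the first of these and 2.39% as low as the second. These dpp pieces were picked as the highest and lowest of 14, while the shares are for single pieces of 2L. The other 12 dpp pieces lay between -18.03 and 2.69, and 4 of all 14 were above 0. In the wg window, the 7 pieces lay between -24.7 and 22.4, and 3 were above 0. These were the first, the last and the piece at 10 to 15 kb, which averaged 11.1 with 40 of 50 samples above 0. The first wg piece had all 50 samples above 0, as had 344 of the 4600 pieces (7.48%), and the last had 49 of 50 above 0 with a mean of 18.6. The SD over pieces was 21.7 in the dpp window and 18.0 in the wg window. The difference between the window means of -5.87 and -0.445 was not tested, since each window is a single value without replicates.

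**Figure D4:**
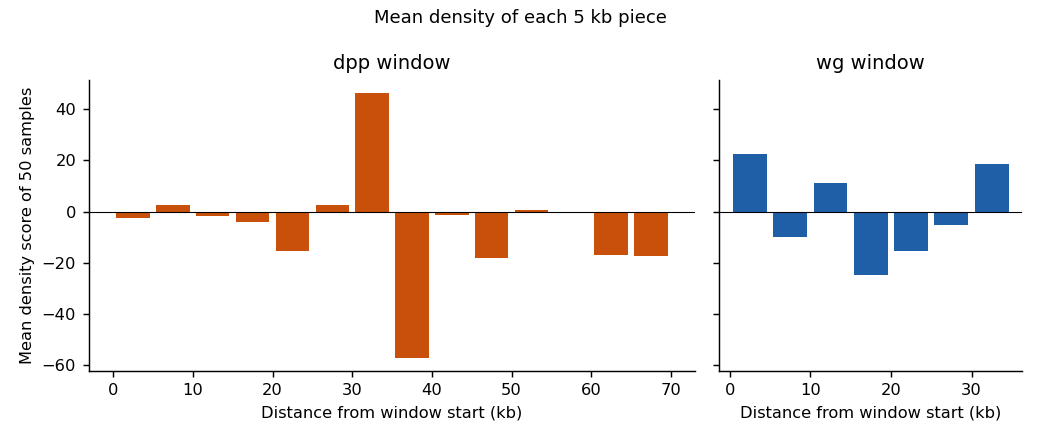
Mean density score of each 5 kb piece (50 samples, vertical axis) against distance from the window start in kb, for the dpp window (left, 14 pieces) and the wg window (right, 7 pieces). The dpp pieces at 30 to 35 kb and 35 to 40 kb are the highest and lowest, at 46.4 and -57.0. The wg pieces range from -24.7 to 22.4.

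Set against the rest of arm 2L, holding an interval was common, and the height of the dpp summit was less so. The arm was divided end to end into 326 windows of 70 kb and 655 of 35 kb that did not touch the window in question. At least 1 listed interval was found in 218 of the 70 kb windows (66.9%) and in 319 of the 35 kb windows (48.7%), so neither the 1 interval of dpp nor the 0 of wg was unusual for the arm. The median was 1 interval for 70 kb and 0 for 35 kb, with up to 31 and 23. A highest density of 468.7 or more was reached in 55 of the 326 windows (16.9%), whose median highest density was 139. Those 55 windows held a median of 5 intervals, and 6 of them held 1. Of the 62 windows with exactly 1 interval, these 6 reached the dpp value, and the median was 119.5. The highest of them reached 1549.

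By mean density neither window stood high. In 253 of the 326 windows of 70 kb (77.6%) the mean was at or above the -5.87 of dpp, and the median of the windows was 2.33. By share of samples above 0, 282 of the 326 windows (86.5%) were at or above dpp. For wg, 406 of the 655 windows of 35 kb (62.0%) had a mean at or above -0.445, and 386 (58.9%) a highest density at or above 63.0. Among the 336 windows of 35 kb without an interval, 67 reached 63.0 and 150 reached the wg mean. The median highest density of these windows was 42.8, and the highest was 122.

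**Figure D5:**
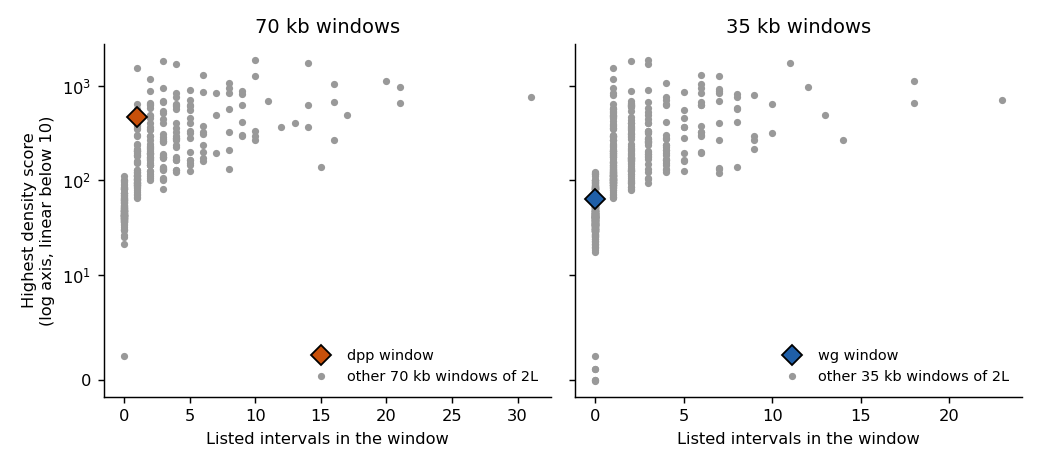
Highest density score (vertical axis, logarithmic above 10 and linear below) against the number of listed intervals for the dpp window and 326 other 70 kb windows of 2L (left), and for the wg window and 655 other 35 kb windows (right). The dpp diamond, at 1 interval and 468.7, lies above most windows with 1 interval; the wg diamond, at 0 and 63.0, lies among the windows with none.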

How the data were processed

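Build dm3 and the tools Bowtie, BWA and CASAVA 1.7.0 are named in the submitters' processing notes. Their roles, and the program that called peaks, are not stated in the sources at hand. The authors' deposited files were an interval list (chromosome, start, end) and a density score for each 100 bp, smoothed and background-subtracted per the file headers. The header joins 2 library codes with 1 input code, which match no label and were taken as the 3 libraries, pooled.

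Starts were raised by 1 to be 1-based. A sample or interval belonged to a window by its centre, and a height was the highest sample inside an interval. Isolated short bumps had a commonest sum of 4.98 above 0 and -1.80 below it. On the assumption that 1 ChIP tag has a height of 1, this gives a Gaussian of SD 199 bp and an input tag weight of 0.362; counting SDs are lower bounds under it. Depth per library is unknown.

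Members and lists were chosen with earlier results of these data known. The named items are dpp and wg, the intervals in and next to each window, and 3 neighbouring genes per side; runs and pieces were picked from their values. Other genes of the Dpp and Wg pathways were not analysed here, since they were to be scored only with a dm3 annotation. Ranks are descriptions without a test. Python 3.11.15, numpy 2.4.6 and pandas 2.3.3 were used. The code for counts and widths was checked on simulated data with less noise than the track, which tests the arithmetic only.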

Additional observations from a re-analysis of the deposited data

How the results depend on the processing

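Of 56 alternatives, all planned, 36 left the result as it was, 18 moved it and 2 reversed a sign. Some of the 36 could not have changed. Every window holds at least 0 intervals, so the wg share by number is always 100%. With 0 intervals in the wg window, joining intervals, a height cut and leaving out interval samples change nothing. Joining across 500 bp could not reach the dpp interval, whose nearest neighbour was 41.4 kb away. A mean or height that shifted by more than 10%, a count that changed by more than 1.5 times, or a share of windows outside its 95% binomial interval was taken as moved. The interval counts of 1 and 0 changed in 1 case: widening by 10 kb on each side gave 2 for dpp. The mean of the wg window, -0.445, turned to 0.0502 when widened and to 2.82 as a median, so its sign is not settled. The dpp mean was -9.39 without samples inside the interval and -5.10 as a median. Averaged over 5 samples, the highest density was 396 for dpp and 55.1 for wg. Runs above 0 at a size of 30 numbered 3 for dpp and 5 for wg, and at 75 wg had 0; runs below 0 at a size of 30 numbered 9 for dpp and 6 for wg, and at 75 dpp had 3. With only the windows that hold an interval, the share at or above dpp was 100% by number, 25.2% by highest density and 83.5% by mean; for wg it was 100% by highest density and 80.3% by mean. With windows of 2L, 3L and 3R together, the share by mean was 71.2% for dpp and 53.7% for wg. Other run sizes and windows that must hold an interval can change counts and shares by their construction. An average over 5 samples cannot exceed the highest sample, and leaving out the high samples of the interval had to lower the dpp mean. For the rest the cause was not tested. No paired analysis was possible because values per library were not at hand, and for the same reason no library was left out in turn. Depth is unknown, and no limit of detection can be given.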
